A study of Caenorhabditis elegans with 4 samples.

Results

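SKN-1 binding on chromosome III of the worm Caenorhabditis elegans was described from 1125 regions, 14.6% of the 7714 regions in the authors' deposited list. A region was taken when its row names chromosome III, a rule that uses no measured value. The list comes from ChIP-seq of strain OP178, sampled as fed hermaphrodite larvae of the first stage (L1) at 20 °C. The labels give the mutation unc119(ed3) and the transgene wgIs178, made by bombardment, which joins TY1, EGFP and FLAG tags to skn-1 and also brings a copy of unc119. The 2 ChIP libraries were precipitated with a goat antibody against GFP and set against 2 libraries of input chromatin, with replicates numbered 1 and 2 in each group. Both groups carry the same mutation and transgene, and a strain without the tag was not analysed here. The labels name no mutation of the worm's own skn-1, and whole larvae were used, so the cells that gave the signal are not resolved. The deposited list pools the libraries, so no spread between replicates can be given, and the intervals given for single regions cover counting error only.

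SKN-1 is a transcription factor related to the Nrf family of mammals and is known for switching on detoxification and oxidative stress genes in the larval gut. In the early embryo it acts first from maternal product and turns on the genes med-1 and med-2, GATA-type factors that set up gut and muscle fates. Per the RefSeq gene table (assembly WBcel235), med-2 and unc-119 lie on chromosome III, med-1 on X and skn-1 on IV. The regions have WS180 coordinates, and the genes and the DNA sequence at them were not analysed here.

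Each listed region is a stretch that the caller PeakSeq tested for more ChIP than input tags, a tag being a sequenced read assigned to the region. The list gives a q value per region, the p value corrected for the number of regions tested. The q values imply 14281 tested regions in the genome, of which 54.0% are listed. From the q values the ChIP tags and the input tags scaled to the ChIP libraries could be recovered as whole numbers at all 1125 chromosome III regions. Ratios below are ChIP over scaled input tags. In sum the chromosome III regions held 150435 ChIP tags and 65872 scaled input tags, which correspond to 38445 input tags before scaling. These are 15.1% of the ChIP tags, 15.3% of the scaled input tags and 13.6% of the unscaled input tags in all regions with recovered tags.

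SKN-1 enrichment on chromosome III was moderate at most regions. The median ratio was 2.36 (quartiles 1.91 and 3.08), on a median of 99 ChIP and 46 scaled input tags per region. On the other 5 chromosomes the median ratio was 2.51 (2.05 and 3.25), on 84 ChIP and 36 scaled input tags. A ratio above 4 was reached by 107 of the 1125 chromosome III regions, or 9.51%, against 11.5% of all regions with recovered tags. A ratio above 2 was reached by 775 regions (68.9%), against 77.2% on the other chromosomes. Among the strongest calls chromosome III stood close to its share of the list. It had 215 regions with a q under 1e-10 (19.1%, against 18.6% of all listed regions) and 68 of the first 500 places of the list (13.6%).

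**Figure D1:**
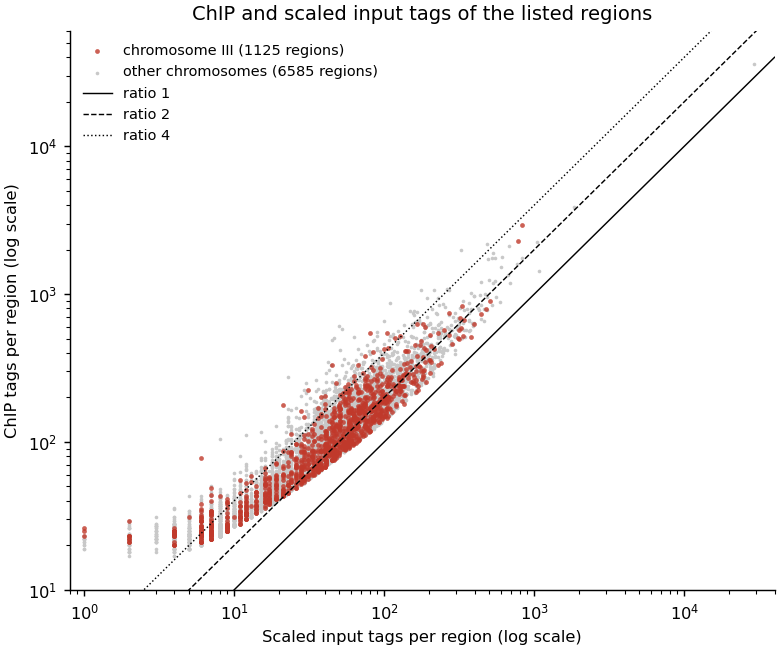
ChIP tags against scaled input tags for each region, both on log scales, for chromosome III (red) and the other chromosomes (grey), with lines at ratios of 1, 2 and 4. The cloud of chromosome III largely overlaps that of the others. Its 2 regions with the most ChIP tags, 2937 and 2288, stand above the rest of the chromosome and are also its widest.

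Whether chromosome III stood below or above the pool of the other 5 chromosomes depended on the input scaling. The factor by which input tags were multiplied, read from the values, was 1.70 on chromosome III and likewise 1.70 on II, against 1.33 on I, 1.32 on IV, 1.58 on V and 1.57 on X. With input tags before scaling, the median ratio was 4.04 on chromosome III and 3.79 on the other chromosomes, the opposite order. Single chromosomes lay on both sides of III under either input. With scaled input the median was lower on X (2.25) and higher on II (2.39), V (2.52), I (2.69) and IV (2.71). With unscaled input it was higher on II (4.16) and V (4.08) and lower on IV (3.65), I (3.625) and X (3.58). Chromosome II, with nearly the same factor, had a median scaled ratio of 2.39 and an unscaled one of 4.16, and 10.3% of its regions were above a ratio of 4. The input density of the regions was close as well. Regions of at least 250 bp had a median of 52.1 unscaled input tags per kb on chromosome III (823 regions) and 52.2 on the other chromosomes (4445 regions), with the width extended by 200 bp. Their ChIP density was 195 tags per kb on chromosome III and 177 on the other chromosomes. Taken singly, the other chromosomes had median input densities from 48.1 on V and 48.6 on II to 56.1 on X. These differences were not tested, since regions are not replicates and the list holds no values per library.

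**Figure D2:**
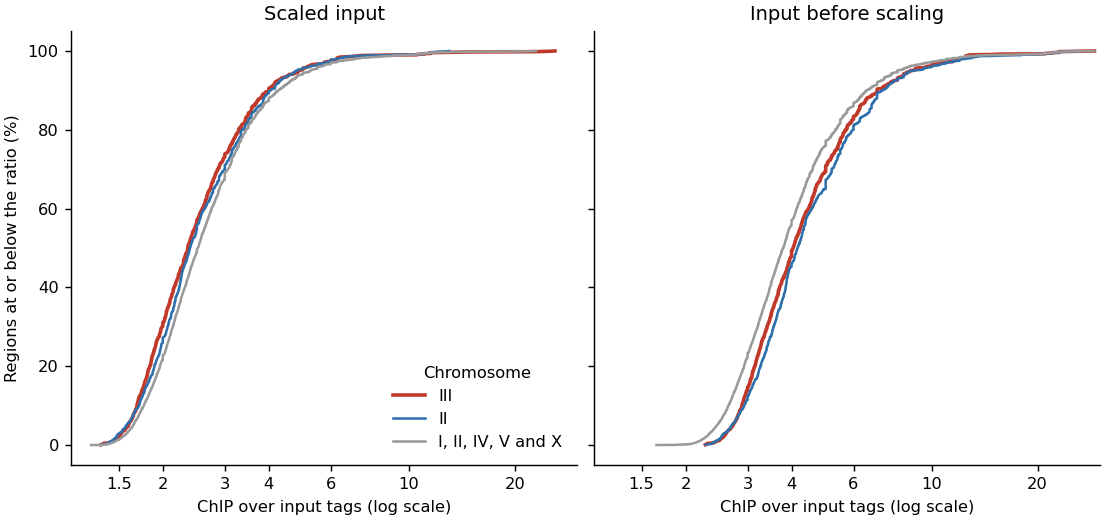
Cumulative share of regions (%) by ChIP over input ratio (log scale) for chromosome III, chromosome II and chromosomes I, II, IV, V and X together, with scaled input on the left and unscaled input on the right. The curve of III lies left of the pooled curve with scaled input (medians 2.36 and 2.51) and right of it with unscaled input (4.04 and 3.79).

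Most chromosome III regions were narrow. The median width was 367 bp (quartiles 230 and 508), against 345 bp (196 and 511) on the other chromosomes, and the regions covered 484 kb in all. Regions under 100 bp made up 10.8% (122 regions) on chromosome III and 14.1% on the others, and 5 of the 122 were a single base. At the other end, 56 regions (4.98%) spanned at least 1000 bp, against 5.78% on the other chromosomes. The wide regions were few but held 19.3% of the covered length.

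High ratios on chromosome III came mostly from narrow regions with few tags. Of the 107 regions above a ratio of 4, 73 were under 250 bp wide and 82 had fewer than 20 unscaled input tags. The 122 regions under 100 bp had a median ratio of 3.83 on 25 ChIP and 7 scaled input tags, and none had a q under 1e-10. The 526 regions of 250 to under 500 bp had a median ratio of 2.21, and 97 of them had a q under 1e-10. The 56 regions of at least 1000 bp had one of 1.89 on 422.5 ChIP and 185.5 scaled input tags, and 36 had a q under 1e-10. The caller's limit admits few tags only at a high ratio, so ratios of narrow and wide regions cannot be set against each other. Median ratios of like width were 2.21 on chromosome III and 2.33 on the other chromosomes at 250 to under 500 bp. They were 2.05 on chromosome III and 2.23 on the others at 500 to under 1000 bp, and 1.89 on chromosome III and 2.13 on the others from 1000 bp. Chromosome II had 2.24, 2.18 and 1.92 in these classes. The share above a ratio of 4 was 3.99% on chromosome III and 6.86% on the others at 250 to under 500 bp. It was 3.73% and 7.32% at 500 to under 1000 bp, but 7.14% and 3.41% from 1000 bp. In this widest class the chromosome III share rests on 4 of 56 regions, and chromosome II had 0 of 56. Among regions with at least 20 unscaled input tags the median ratio was 2.06 on chromosome III (713 regions) and 2.20 on the other chromosomes, and 25 of the 713 (3.51%) exceeded 4, against 5.34% on the other chromosomes.

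The 2 widest regions of chromosome III, a pair of broad regions in its middle, held the most ChIP tags. The region at 8443236 to 8447557 (4322 bp) held 2937 ChIP and 832 scaled input tags, a ratio of 3.53 (95% exact interval 3.21 to 3.90), and took place 2 of the whole list. The region at 9050738 to 9055208 (4471 bp, place 7) held 2288 ChIP and 784 scaled input tags, a ratio of 2.92 (2.64 to 3.23). They lie 603 kb apart and together hold 3.47% of the ChIP tags of the chromosome's regions. The next highest ChIP number on the chromosome was 898. Tag numbers grow with width, and per kb of width plus 200 bp the pair did not stand apart. It had 649 and 490 ChIP tags per kb, against 651 at 10758875 to 10759513 and 555 at 1924770 to 1925695. The 56 chromosome III regions of at least 1000 bp, which include both, had a median ratio of 1.89. Both were picked for a small q, so their place above this median follows in part from the choice.

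The other 8 of the 10 chromosome III regions with the smallest q were shorter. Several had higher ratios than the pair of broad regions, but ratios at such different widths cannot be set against each other. The region at 8551652 to 8552455 (804 bp, place 32) had 550 ChIP and 80 scaled input tags, a ratio of 6.88 (5.11 to 9.48). The region at 10758875 to 10759513 (639 bp, place 43) had 546 and 104, a ratio of 5.25 (4.04 to 6.98). The region at 6488873 to 6489364 (492 bp, place 84) had 331 and 45, a ratio of 7.36 (5.02 to 11.6). These 3 were also among the 10 highest ratios of the chromosome when only regions with at least 20 unscaled input tags are ranked. The remaining 5 of this set had ratios between 3.22 and 4.26, and their intervals overlap. The ratio was 4.26 (interval 3.33 to 5.60) at 10460412 to 10461471, and 4.08 (interval 3.21 to 5.29) at 3650162 to 3651359. At 11243172 to 11244911 the ratio was 3.81 (3.07 to 4.77). Lower values were found at 1924770 to 1925695 (3.43, interval 2.80 to 4.26) and 4281665 to 4282732 (3.22, interval 2.63 to 3.99). Between them, the 10 regions held 6.34% of the chromosome's listed ChIP tags and 4.01% of its unscaled input tags.

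The highest ratios on chromosome III, among regions with at least 20 unscaled input tags, lay between 4.69 and 7.36, with widths between 339 and 1187 bp. Beyond the 3 named above, the list held 2528618 to 2528980 (200 ChIP and 38 scaled input tags, ratio 5.26, 3.44 to 8.73) and 6961051 to 6961530 (252 and 48, 5.25, 3.58 to 8.13). To the right of this second region came 6971748 to 6972274 (382 and 75, 5.09, 3.73 to 7.15). The ratio was 5.13 (interval 3.40 to 8.46) at 8307295 to 8307669, and 4.99 (interval 3.61 to 7.21) at 10470737 to 10471243. At 9058541 to 9059727 the ratio was 4.82 (3.61 to 6.68), and the last of the set was 8923289 to 8923627 with 4.69 (interval 3.00 to 7.85). The region at 9058541 begins 3332 bp beyond the broad region at 9050738 to 9055208. All 10 intervals overlap one another, so these tag numbers do not rank them, and a ratio chosen for being high is likely to overstate the true one.

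**Figure D3:**
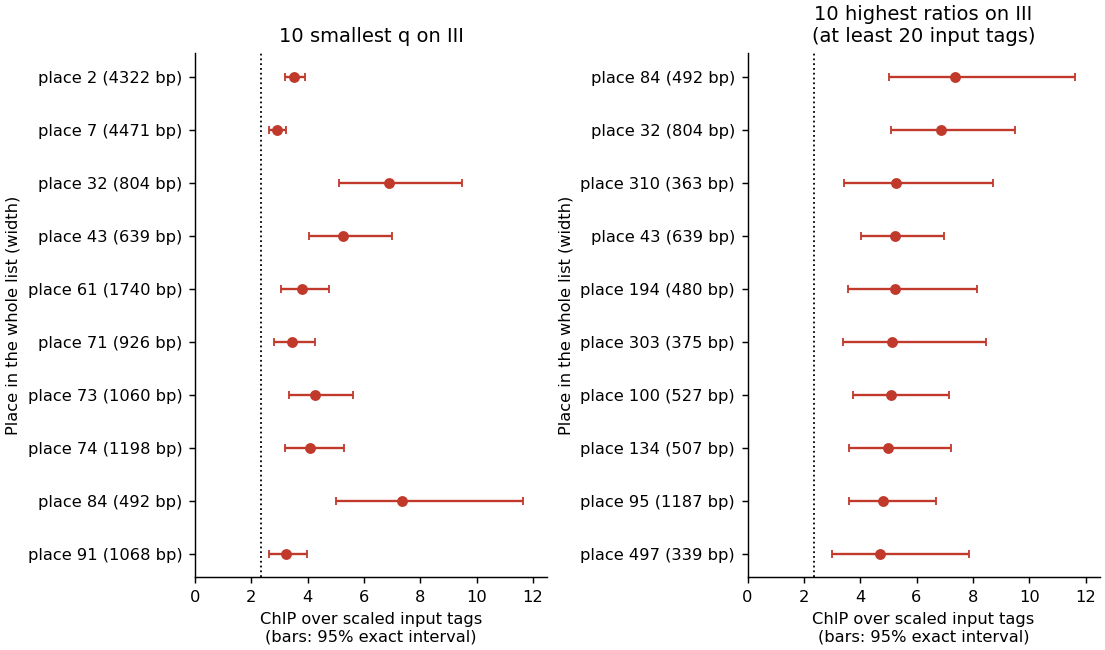
ChIP over scaled input ratio with its 95% exact interval for the 10 chromosome III regions with the smallest q (left) and the 10 with the highest ratio among those with at least 20 unscaled input tags (right), each marked by its place in the whole list and its width. The dotted line is the chromosome's median ratio of 2.36; both sets were picked for small q or high ratio, so their place above it follows from the choice.

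At 3 narrow regions the input held no tag before scaling and counts as 1 scaled tag in the caller's test. They were the single base at 13001080 with 26 ChIP tags, 1163308 to 1163335 with 25 and 6188109 to 6188120 with 23. No ratio is given for them. A wider region with little input lay at 12278711 to 12278988 (278 bp), with 78 ChIP and 6 scaled input tags, a ratio of 13.0 (5.05 to 75.8).

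The regions with the lowest ratios held many tags in both ChIP and input. This follows from the caller's limit, which admits a low ratio only on many tags. The lowest ratio, 1.34 (1.07 to 1.69), belonged to 12583282 to 12583747, with 255 ChIP and 191 scaled input tags. This region also had the highest input density of the chromosome, 168 unscaled tags per kb, against 133 at the next. The next lowest were 4279958 to 4281263 (1.34, interval 1.06 to 1.72) and 8124286 to 8124711 (1.35, interval 1.04 to 1.79). Then came 13464373 to 13465431 (1.35, interval 1.06 to 1.74) and 6358726 to 6361868 (1.36, interval 1.16 to 1.60). The last of these, at 3143 bp, was the fifth widest region of the chromosome. The third widest, 5501379 to 5504839 (3461 bp), held the 898 ChIP tags mentioned above at a ratio of 1.76 (1.55 to 2.02), and the fourth widest, 12614123 to 12617464 (3342 bp), one of 2.51 (2.14 to 2.95). These regions were picked for a low ratio or a great width, so they do not show how width and ratio relate.

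The other 4 of the 5 regions with the highest input density had ratios under 2. At 349369 to 350355 the input density was 133 unscaled tags per kb with a ratio of 1.97 (1.65 to 2.38), and at 8795425 to 8796176 it was 132 with 1.97 (1.62 to 2.44). At 5013732 to 5014564 it was 129 with 1.47 (1.20 to 1.82), and at 8124286 to 8124711 it was 126 with 1.35. A local run of high input stood out near 8.8 Mb, and was picked after the values were seen. There the regions 8795425 to 8796176, 8796967 to 8797822, 8799609 to 8800980 and 8801359 to 8802721 had 132, 100.4, 125 and 120 input tags per kb, against the chromosome's median of 52.1. Their ratios were 1.97, 1.66, 1.56 and 2.16. The next region to the right, the 14 bp at 8805794 to 8805807, had 29 ChIP against 2 scaled input tags. Its single unscaled input tag is too little for a density. Dense input did not always come with a low ratio, since the broad region at 8443236 to 8447557 (ratio 3.53) had 108 input tags per kb and that at 9050738 to 9055208 (ratio 2.92) had 98.7. The 4 dense regions near 8.8 Mb held 424, 300, 520 and 688 ChIP tags at widths of 752, 856, 1372 and 1363 bp. The chromosome's median ChIP number was 99 over all widths, 179 at 500 to under 1000 bp and 422.5 from 1000 bp. The region at 8801359 to 8802721 had place 226 of the list. The input enters the ratio, so density and ratio are not independent measures.

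Along the chromosome, the middle held wider regions with more input and more ChIP per kb, and the outer parts held regions of higher ratio. This split of the span at 25% from each end was chosen after the values were seen. In the central 50% the 608 regions had a median ratio of 2.18, and 6.41% were above 4. In the outer 50% the 517 regions had a median ratio of 2.59, and 13.2% were above 4. Median widths were 387.5 bp in the centre and 347 bp outside, and the regions covered 288 kb in the centre and 196 kb outside. Among regions of at least 250 bp, unscaled input per kb was 56.0 in the centre and 46.8 outside, and ChIP per kb was 209 in the centre and 184 outside. The order of the ratios held with at least 20 unscaled input tags (2.00 in the centre, 2.19 outside) and among regions of 250 to under 500 bp (2.14 in the centre, 2.35 outside). The share of regions with a q under 1e-10 was 18.6% in the centre and 19.7% outside. The same split gave lower central medians on II (2.25 in the centre, 2.57 outside), IV (2.58, 2.94 outside), V (2.35, 2.75 outside) and I (2.52, 3.00 outside), and the same median on X (2.25 in both). On II, IV, V and I central regions were likewise wider, with more input and ChIP per kb. On II these were 371 bp, 52.6 and 189 in the centre, and 350 bp, 43.4 and 170 outside. X had the reverse order, with 356.5 bp, 52.4 and 167 in the centre, and 373.5 bp, 60.7 and 200 outside.

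In bins of 1 Mb the number of regions ran from 58 in the first to 110 in the ninth, which also holds the region of place 2. The ninth bin had the highest input density, 60.5 unscaled tags per kb, and the highest ChIP density, 231 tags per kb, with a median ratio of 2.15. The second and the third bin, 1000001 to 2000000 and 2000001 to 3000000, had input densities of 44.5 and 40.1 and the highest median ratios, 2.78 and 2.76. The twelfth bin, 11000001 to 12000000, was alike with 45.9 and 2.64. The tenth bin had the lowest median ratio, 2.04. The fifth bin had a single region above a ratio of 4 among its 86, against 14 of 71 in the second. Among regions with at least 20 unscaled input tags these counts were 0 of 69 and 3 of 33. The spread within bins was wide: for both ratio and input density, the quartile ranges of all 14 bins overlap. In the last 25% of the span there were 293 regions covering 115 kb, against 224 covering 81.0 kb in the first 25%, a ratio of counts of 1.31.

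**Figure D4:**
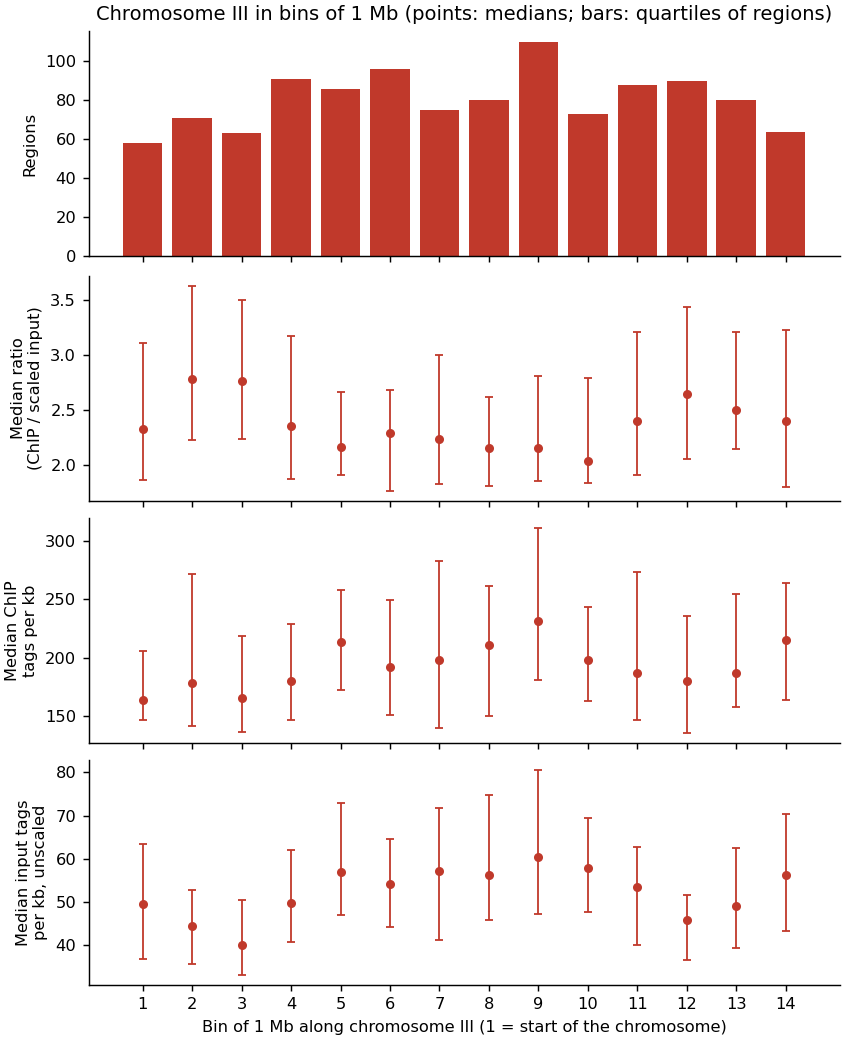
Chromosome III in 14 bins of 1 Mb: from the top, the number of regions, the median ratio, the median ChIP tags per kb and the median unscaled input tags per kb, with bars for the quartiles of the regions in each bin. The axes of the lower 3 panels do not start at 0. The ninth bin has the most regions, 110, and the bins with the least input per kb, the third and the second, have the highest median ratios. Input enters the ratio, so these panels are not independent.

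Regions were absent from several long stretches of the chromosome. The longest stretch without one was 9191463 to 9390190 (199 kb), some way to the right of the broad region of place 7. The next were 188969 to 312883 (124 kb) and 12714133 to 12819956 (106 kb). Of 138 windows of 100 kb, 2 held no region, and the mean was 8.15. The fullest windows were 3800001 to 3900000 with 18 regions and 8700001 to 8800000 with 16. The first and the last region of the chromosome lay at 14987 to 14990 and at 13771080 to 13771445.

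Most chromosome III regions stood alone. Of the 1124 gaps between next neighbours, 143 (12.7%) were under 1 kb, against 15.4% on the other chromosomes, and the shortest was 200 bp. Joined at gaps under 1 kb, the regions formed 866 single regions, 93 pairs, 20 groups of 3, 2 groups of 4 and 1 group of 5. The group of 5 spans 13716207 to 13721316, near the right end. Its first region, 13716207 to 13716924, had a ratio of 3.72 at place 370, and the next, 13717392 to 13717748, one of 1.62. The other 3 had ratios of 4.50 on 27 ChIP tags, 1.60 on 262 and 1.75 on 105. The groups of 4 lie at 3953140 to 3956538, with ratios of 1.85 to 2.44, and at 13069865 to 13072896, with ratios of 1.75 to 3.71.

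Close neighbours differed in ratio at few pairs. Both regions of a pair share the scaling factor, so apart from rounding the fold between their ratios does not rest on it. The p values do, since the unscaled input tags in the test were obtained by dividing by this factor. Of the 143 chromosome III pairs, 3 (2.10%) differed in an exact two-sided test on ChIP and unscaled input tags (Benjamini-Hochberg adjusted p under 0.05), against 1.56% of the 1157 pairs on all chromosomes. Without adjustment 15 pairs (10.5%) had p under 0.05, against 8.64% of all pairs. The median fold between the ratios of a pair was 1.33 on chromosome III and 1.29 on the other chromosomes. A pair that did not pass is not shown to be alike, since narrow regions hold few tags.

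The clearest difference lay between 4281665 to 4282732, with 603 ChIP and 187 scaled input tags, and 4279958 to 4281263, with 224 and 167. The ratios were 3.22 and 1.34, a 2.40-fold difference over a gap of 401 bp (adjusted exact p = 1.45e-05). The second pair was 13466117 to 13466585 (ratio 2.79) and 13464373 to 13465431 (1.35), 685 bp apart, with a 2.06-fold difference (adjusted exact p = 0.0296). In both pairs the weaker region is 1 of the 5 with the lowest ratios on the chromosome. The third was 8794623 to 8795081 (ratio 3.98, 48.6 input tags per kb) and 8795425 to 8796176 (1.97, 132 input tags per kb), 343 bp apart. Its 2.02-fold difference lay at the threshold (adjusted exact p = 0.0494; 0.0225 with at least 20 input tags in both regions, and just past 0.05 at gaps under 500 bp). This pair forms the left edge of the run of high input described above.

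**Figure D5:**
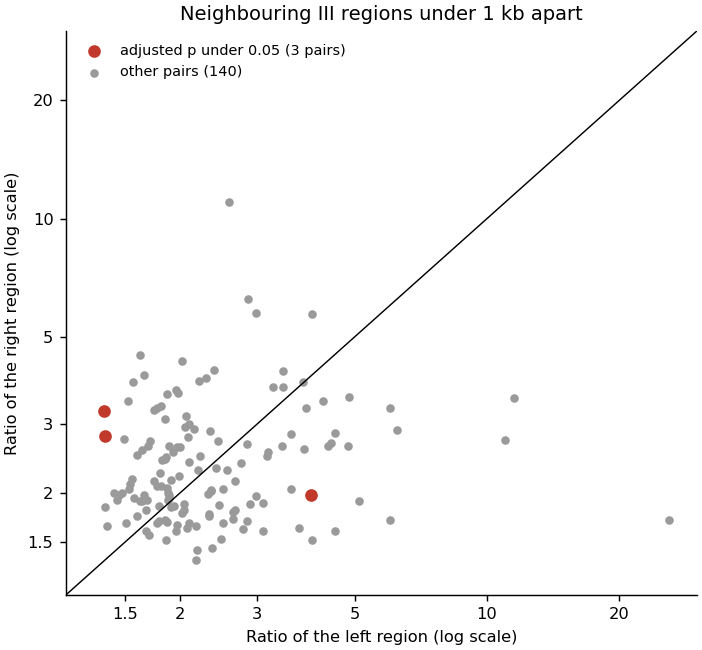
Ratio of the right against the left region for the 143 pairs of neighbouring chromosome III regions less than 1 kb apart, both on log scales, with the line of equal ratios. The 3 pairs with an adjusted exact p under 0.05 are red, and a region without an input tag is drawn with 1 scaled input tag.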

How the data were processed

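Per the file headers, the genome build is WormBase WS180 and the regions come from PeakSeq. The authors' deposited list gives 1 q value per region, from ChIP and input libraries combined. For the aligner, caller settings and library totals, the sources used here give nothing. The labels do not say that replicates came from separate cultures.

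Down the list, q equals p × N / (place + 1) with N = 14281. Each p was matched within 1e-12 in ln p to a binomial tail (probability 0.5), which gave 1 pair of tag numbers at 7710 of 7714 regions. Reading the larger number as ChIP and the smaller as scaled input follows from knowledge of PeakSeq. On chromosome III, 99.1% of the smaller numbers above 1 are rounded-up multiples of 1.70, as are 58.8% of all whole numbers. Dividing by this factor gave unscaled input. Ratios carry 95% exact (Clopper-Pearson) intervals, with the factor taken as known. Neighbours were compared by an exact conditional test of their tags, Benjamini-Hochberg adjusted over 1157 pairs.

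Named on chromosome III are the 10 smallest q, the 10 highest ratios with at least 20 input tags, the 5 widest, the 5 lowest ratios, the 5 highest input densities, the 3 longest groups and stretches, and passing pairs. Regions without input tags, the region at 12278711, the run near 8.8 Mb and the windows were added after their values were seen. Members and rules were chosen with earlier results of these data known. Gene context was planned but not run, as the gene table has a different build. The steps were tested on simulated data with SciPy 1.17.1, NumPy 2.4.6 and pandas 2.3.3 under Python 3.11.15.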

Additional observations from a re-analysis of the deposited data

How the results depend on the processing

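Of 47 alternatives, 17 stayed within the interval of the value or on the same side of the threshold, 28 moved, 1 turned direction and 1 narrowly failed the threshold. Those intervals were taken over regions, which are not replicates, so they serve as a yardstick and not as a test. Several alternatives, such as another q limit, another gap limit or a best-ranked part of the list, change the quantity itself. For these a move was to be foreseen, so the tally is no score of robustness. No paired analysis was possible because the list holds no value per replicate, and leaving out a replicate was impossible too. The median ratio on chromosome III was 4.04 with input before scaling, 3.00 with the lowest factor of the 6 chromosomes, 2.06 with at least 20 input tags, and 2.52 and 2.81 in the best-ranked 50% and 25% of the whole list. The share above a ratio of 4 was 50.6%, 22.5% and 3.51% under the first 3 of these. The shifts from the scaling follow from a smaller divisor. The median of III over that of the other chromosomes, 0.937, turned to 1.07 without scaling. It was 0.962 in the best-ranked 25% and 0.986 against chromosome II alone. The central over outer median, 0.842, was 0.912 with at least 20 input tags, 0.909 at 250 to under 500 bp and 0.879 for the central 60% of the span, and the cause was not tested. The share with a q under 1e-05 was 43.2% and under 1e-20 5.87%. The median width was 439.5 and 508 bp in the best-ranked 50% and 25%, and 388 bp from 100 bp up. The last 25% of the span held 1.68 times the regions of the first in the best-ranked 25%. The highest over the lowest input density of a bin, 1.51, was 2.07 at a minimum width of 500 bp, where a bin held as few as 11 regions. Gaps under 500 bp made up 5.52% and under 2 kb 24.6%. Gaps under 1 kb made up 5.92% and 2.81% in the best-ranked 50% and 25%, which hold fewer regions. Pairs that differed numbered 1 at gaps under 500 bp, 5 at gaps under 2 kb, 5 with at least 20 input tags in both regions and 15 without adjustment. Tag numbers limit the narrowest regions, with a median of 25 ChIP tags under 100 bp. The comparison of II, III and the rest, the central and outer split and their alternatives were chosen after the data were seen.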
